A study of Mus musculus with 10 samples.

Results

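The genes described here are the interleukin-1 (IL-1) cytokines *Il1a*, *Il1b* and *Il18*, the proteins that hold IL-1 back or receive it (*Il1rn*, *Il1r2* and *Il1rap*), and the parts of the inflammasome (*Nlrp3*, *Pycard*, *Casp1* and *Casp4*). They were chosen by symbol, and all 10 have a row among the 13091 genes of the deposited tables. RNA was sequenced from neutrophils grown from clonal HoxB8-immortalized bone marrow progenitors of 129-SVEV mice, in which HoxB8 holds the cells dividing as long as estrogen is supplied and lets them mature after its withdrawal. There were 10 libraries in 4 groups. The labels number 2 biological replicates of *Vim*+/+ and 3 of *Vim*-/- neutrophils, each left unstimulated or given 25 ng/mL LPS for 1 hour. The sources used here do not say whether each replicate is a separate clone, and all groups carry the HoxB8 transgene. The labels give the genotype of the *Vim*-/- cells as a knockdown, while the study's methods take them from vimentin knockout mice.

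IL-1α and IL-1β are alarm cytokines that act through the same receptor, and IL-18 is a related cytokine with a receptor of its own. IL-1β and IL-18 are made as inactive precursors. An inflammasome, which is a sensor such as NLRP3 joined through the adaptor ASC (the product of *Pycard*) to caspase-1, cuts them into the active form. Neutrophils are a known source of IL-1β and are known for the decoy receptor encoded by *Il1r2*, which binds IL-1 without signalling.

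The value used for each gene is baseMean, the mean over libraries of the counts that the authors normalized with DESeq2. It is 1 number per gene and was equal in all 4 tables for all 13091 genes. It averages 6 *Vim*-/- and 4 *Vim*+/+ libraries, of which 5 in all had LPS. The part that any group plays in a mean therefore cannot be told apart, and no value per library, no error and no depth stands behind it. The other columns of the tables are the authors' own comparisons and were not used, so differences with genotype or LPS are not analysed here. For the same reason the loss of *Vim* from the *Vim*-/- libraries was not checked. Averaged over all libraries, *Vim* had a baseMean of 39926.

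The cells carried the RNA of neutrophils. All 12 neutrophil markers had a row, from *Ly6g* at a baseMean of 11373 to *S100a9* at 1290830. The 6 progenitor markers were also all listed, from *Kit* at 1075 to *Mpo* at 121760, where *Mpo* encodes the myeloperoxidase of primary granules. Among other cells, 0 of 5 erythroid, 1 of 5 T cell and 1 of 4 B cell markers were listed, *Cd3d* at 250 and *Cd79a* at 83.8. The macrophage genes *C1qa*, *C1qb*, *C1qc* and *Mertk* had no row, while *Csf1r* stood at 3269, *Adgre1* at 10073, *Ccr2* at 1256 and *Ly6c2* at 26480. All 3 eosinophil markers were listed, *Prg2* at 268319 (99.9th percentile), *Epx* at 142776 (99.8th percentile) and *Siglecf* at 4599. *Prg2* and *Epx* thus ranked within the range of the neutrophil markers and above *Ly6g*. Of 4 mast cell and basophil markers 3 were listed, *Cpa3* at 26296, *Mcpt8* at 2802 and *Cma1* at 468, and *Fcer1a* had no row. The part of such cells in the levels below was not tested.

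Windows around 3 starts are shown, those of the member with the highest level (*Il1r2*), of the cytokine with the highest level (*Il1b*) and of the member with the lowest level (*Il18*). Each runs from 250 bases before to 50 bases after a RefSeq start on GRCm38.p6, read along the strand of the gene. That of *Il1r2* is chr1:40085843-40086142 on the plus strand, that of *Il1b* is chr2:129371090-129371389 on the minus strand and that of *Il18* is chr9:50554450-50554749 on the plus strand. Capitals mark matches, on either strand, to the searched motifs named below.
Il1r2: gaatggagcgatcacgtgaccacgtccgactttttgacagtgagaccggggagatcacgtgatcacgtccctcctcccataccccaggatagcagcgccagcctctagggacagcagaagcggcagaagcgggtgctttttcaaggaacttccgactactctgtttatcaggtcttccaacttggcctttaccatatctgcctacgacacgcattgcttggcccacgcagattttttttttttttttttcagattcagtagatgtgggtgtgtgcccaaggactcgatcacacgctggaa
Il1b: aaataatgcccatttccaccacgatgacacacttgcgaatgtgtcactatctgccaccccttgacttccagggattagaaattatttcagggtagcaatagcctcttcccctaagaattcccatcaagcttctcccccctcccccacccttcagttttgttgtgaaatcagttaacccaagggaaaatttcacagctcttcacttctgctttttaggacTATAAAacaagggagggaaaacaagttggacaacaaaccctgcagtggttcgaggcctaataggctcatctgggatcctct
Il18: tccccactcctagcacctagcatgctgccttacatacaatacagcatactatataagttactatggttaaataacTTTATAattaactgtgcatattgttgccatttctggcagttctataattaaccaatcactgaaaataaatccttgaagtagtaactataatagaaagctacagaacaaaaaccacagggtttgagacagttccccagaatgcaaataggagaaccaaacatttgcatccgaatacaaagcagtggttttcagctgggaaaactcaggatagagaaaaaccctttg

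All 10 members had a RefSeq window, and some had more than 1 start, giving 14 windows. The motifs searched on both strands were the NF-κB consensus, the AP-1 site TGANTCA, the PU.1 core GAGGAA and the TATA box TATAAA. NF-κB and AP-1 are transcription factors that act downstream of the LPS receptor, and PU.1 is a factor of myeloid cells. The letters TATAAA were matched on either strand in 4 of the 14 windows (*Il1a*, *Il1b*, *Il1rn* and *Il18*) and in 13.6% of all 32851 windows. Along the strand of the gene, only *Il1a* and *Il1b* read TATAAA. In *Il1rn* and *Il18* the match was the reverse complement TTTATA, and that of *Il1rn* lay after the start. The search set no direction or place, so a match is not in itself a TATA box. The NF-κB consensus was found in 3 of the 14, 1 of *Nlrp3* and 2 overlapping windows of *Casp4*, and in 4.51% of all windows. The AP-1 site was found in 2 of the 14 (*Il1a* and *Il1rn*) and in 7.81% of all windows. The PU.1 core was found in 4 of the 14 (*Casp1*, *Il1a*, *Nlrp3* and *Pycard*) and in 28.3% of all windows. The windows shown for *Il1b* and *Il18* hold the TATAAA match alone, and that for *Il1r2* holds none of the 4 motifs. The *Il1r2* window lies inside the gene as annotated in GENCODE, which begins at 40074079, and no window at that start was searched. The *Il18* window ends before the GENCODE start of that gene, 50554827. These are matches of letters and not measured sites.

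The members ranged over most of the abundance scale of these cells. The decoy receptor and *Il1b* were among the most abundant genes, *Il1rn* and *Nlrp3* followed, and *Il18* was rare. The median gene had a baseMean of 907, and 7 of the 10 members stood above it and 3 below it. The median member lay at the 77.6th percentile of all listed genes, and 5 members lay at or above the 75th percentile. Together the members held 0.194% of the summed baseMean of 55507688, and *Il1r2* alone made up 40.8% of what the members held.

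**Figure D1:**
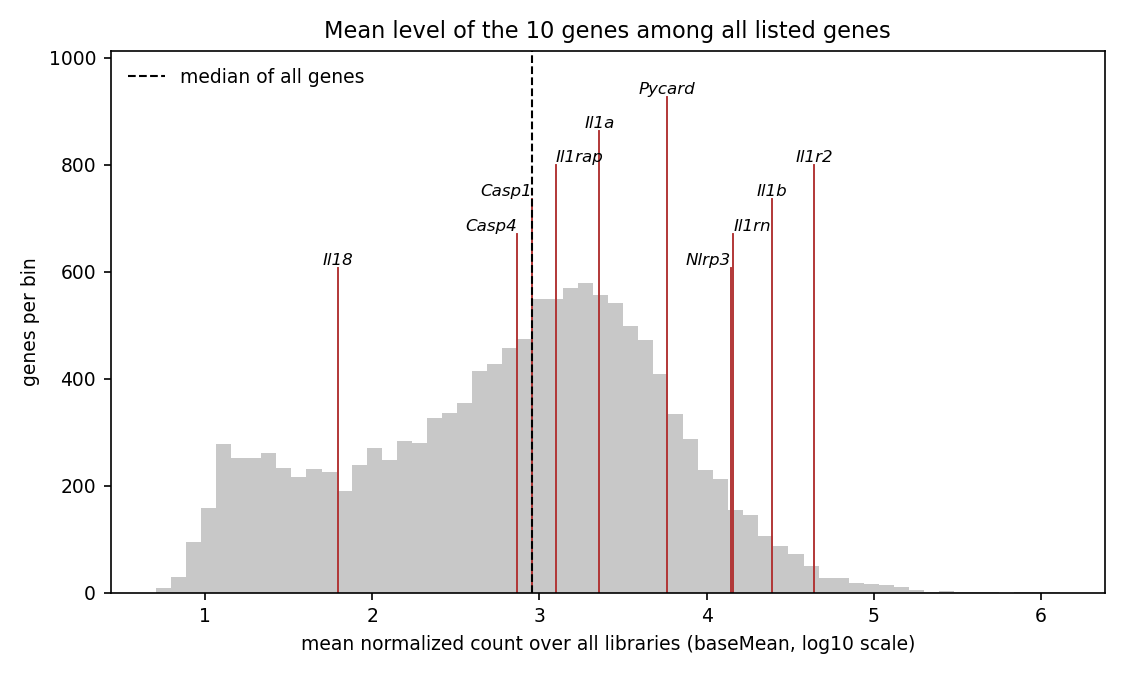
Number of genes per bin of baseMean (mean normalized count over all libraries, log10 scale) for the 13091 listed genes, with a red line at each of the 10 members and a dashed line at the median gene. The 4 members *Il1r2*, *Il1b*, *Il1rn* and *Nlrp3* lie at or above the 90th percentile, and *Il18* lies far below the median.

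Levels of different genes were compared per length, as baseMean per kilobase of the longest transcript in GENCODE M21, since a longer transcript yields more fragments. On that scale the order was *Il1r2*, *Il1b*, *Il1rn*, *Nlrp3*, *Pycard*, *Il1a*, *Casp1*, *Casp4*, *Il1rap* and *Il18*. The highest level was 441 times the lowest. With no error behind the means, no neighbours in this order can be said to differ.

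The cytokines themselves spanned nearly that whole range. *Il1b* lies on chromosome 2 of GRCm38 from 129364570 to 129371139 on the minus strand. Its baseMean was 24472, above 97.3% of listed genes, and its level per kilobase was 18047. *Il1a* lies beside it from 129299610 to 129309972 on the same strand, with 54597 bases between them. Its baseMean was 2287, at the 69.3rd percentile, and its level per kilobase was 1158. Per kilobase *Il1b* was therefore 15.6 times as abundant as its neighbour. *Il18*, on chromosome 9 from 50554827 to 50581840, had a baseMean of 62.3, at the 17.2nd percentile. It was the only member under a baseMean of 100, and *Il1b* exceeded it 257-fold per kilobase of transcript and 393-fold by baseMean alone.

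Of the members, *Il1rn* and *Il1r2* encode proteins that hold IL-1 back. *Il1rn*, on chromosome 2 from 24336853 to 24351494, encodes the receptor antagonist, which occupies the IL-1 receptor without activating it. Its baseMean was 14401, at the 94.7th percentile, and its level per kilobase was 5639, or 0.312 times that of *Il1b* and 4.87 times that of *Il1a*. Both ratios depend on the length used and were 0.889 and 9.55 per kilobase of coding sequence. The longest annotated *Il1rn* transcript has 1 exon of 2554 bases, and the longest coding sequence annotated for the gene has 534 bases. *Il1r2*, on chromosome 1 from 40074079 to 40125231, encodes the decoy receptor. Its baseMean of 44026 was exceeded by 147 of the listed genes, and its level per kilobase was 31026, or 1.72 times that of *Il1b*.

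*Il1rap*, on chromosome 16 from 26581704 to 26730117, encodes the accessory chain that the IL-1 receptor needs to signal. Its baseMean was 1256, at the 56.4th percentile, and its level per kilobase of 278 was the second lowest among the members, although by baseMean alone it stood above *Casp1* and *Casp4*. *Il1r2* was 112 times as abundant as *Il1rap* per kilobase of transcript, 58.6 times per kilobase of coding sequence and 35.0 times by baseMean alone. The gene of the ligand-binding chain itself, *Il1r1*, had a baseMean of 32.0, at the 11.7th percentile. *Il1r2* exceeded it 5644-fold per kilobase of transcript, 1933-fold per kilobase of coding sequence and 1376-fold by baseMean alone. The size of the gap depends on the length used. It also rests on a low count of *Il1r1*, under a baseMean of 100 and with no error behind it.

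Among inflammasome parts the sensor and the adaptor had higher levels than the caspases on every scale used. *Nlrp3*, on chromosome 11 from 59541568 to 59566956, encodes a sensor of cell damage. It had a baseMean of 13914, at the 94.4th percentile, and a level per kilobase of 3460. *Pycard*, on chromosome 7 from 127989708 to 127993867, encodes the adaptor ASC and had a baseMean of 5826, at the 86.0th percentile, and a level per kilobase of 1533. *Nlrp3* was 2.26 times as abundant as *Pycard* per kilobase of transcript but 0.446 times as abundant per kilobase of coding sequence, so the order of these 2 genes depends on the length used.

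*Casp1* and *Casp4* lie next to each other on the plus strand of chromosome 9, from 5298517 to 5307265 and from 5308828 to 5336783, with 1562 bases between them. *Casp1* encodes the caspase that cuts the IL-1β and IL-18 precursors, and *Casp4* encodes the caspase that senses LPS inside the cell. Their baseMeans were 902 and 736, at the 49.9th and 46.4th percentiles, close to the median gene. Their levels per kilobase were 602 and 387. *Nlrp3* stood at 5.75 times the level of *Casp1* per kilobase of transcript, 6.01 times per kilobase of coding sequence and 15.4 times by baseMean alone. *Pycard* stood at 2.55, 13.5 and 6.46 times the level of *Casp1* on the same 3 scales. The ratio of *Casp1* to *Casp4* was 1.56, 1.14 and 1.23.

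**Figure D2:**
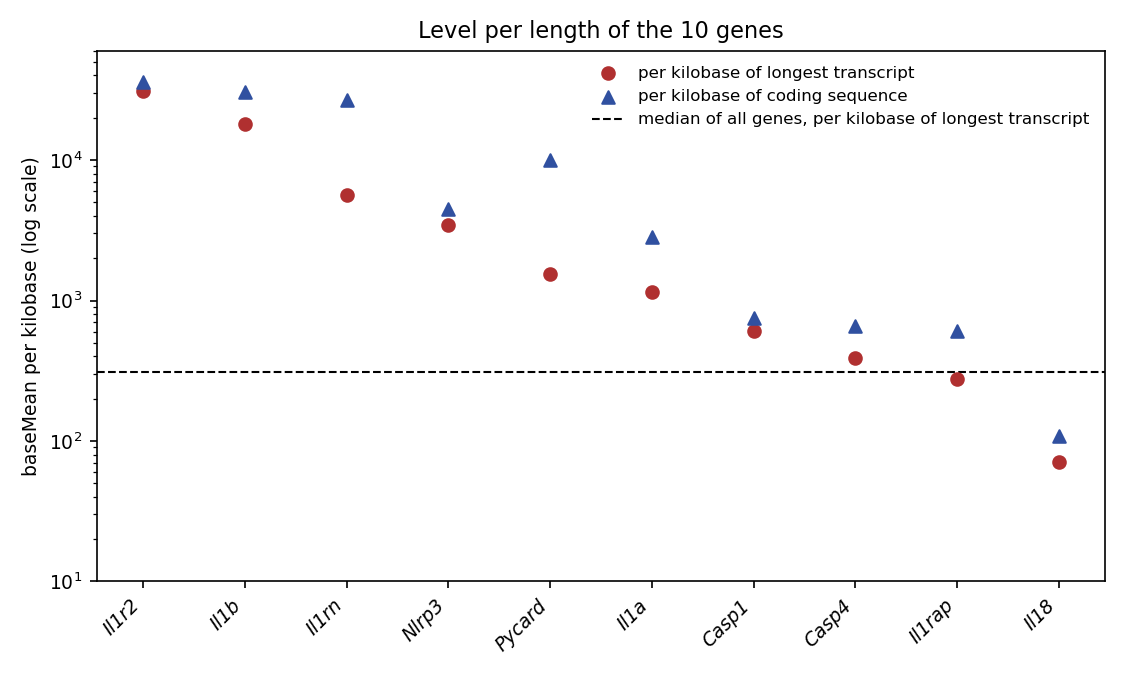
Level of each of the 10 members as baseMean per kilobase (log scale) of the longest transcript (red circles) and of the coding sequence (blue triangles), with a dashed line at the median of all genes per kilobase of longest transcript. *Il1r2*, *Il1b* and *Il1rn* stand highest and *Il18* lowest by both lengths, while *Nlrp3* and *Pycard* change places.

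Whether counting used strand is not given in the sources used here, so reads from a gene on the other strand could have been counted. For *Pycard* 12.8% and for *Il1a* 11.2% of the annotated exonic bases overlap exons of another gene on the opposite strand (*Gm45205* and *Gm14023*). The share was 4.86% for *Il1rap* and 1.31% for *Il1b*. The other 6 members had no such overlap.

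The wider pathway was read from a list of 48 further genes, of which 39 had a row in the tables, 17 of them at or above the 75th percentile. Of 6 other IL-1 family ligands 2 were listed. *Il36g*, listed under its older name *Il1f9*, had a baseMean of 10849, at the 92.6th percentile, and its level per kilobase of transcript was 6583. It stood above *Il1rn* on that scale but below it by baseMean alone. *Il36a*, listed as *Il1f6*, had a baseMean of 16.0, and *Il33*, *Il36b*, *Il36rn* and *Il1f10* had no row.

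Of 9 receptors and binding proteins 7 were listed, and *Il1rapl1* and *Il1rapl2* had no row. *Il18rap*, which encodes the accessory chain of the IL-18 receptor, was the highest at a baseMean of 9616, and *Il1r1* was the lowest. All 10 genes of receptor signalling were listed, from *Tab1* at 1113 to *Tab2* at 10363, both partners of the kinase TAK1. Their median level per kilobase was 1423, against 310 for all listed genes with a length. The median was 3301 for the 2 listed IL-1 family ligands of the pathway list and 822 for effectors and regulators. It was lower than that of all genes for receptors and binding proteins (191) and for the other inflammasome sensors (81.4).

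Of 11 other inflammasome sensors 10 were listed, and *Nlrp6* had no row. They ran from *Naip1* at a baseMean of 20.4 to *Naip2* at 3877. Both belong to a family of near-identical copies among which reads can be split, so their values are uncertain. All 10 lay under *Nlrp3*, and the highest of them per kilobase stood at 927. Of 12 effectors and regulators 10 were listed, from *Gbp2*, which encodes an interferon-induced GTPase, at 183 to *Txnip*, which encodes a thioredoxin-binding protein, at 33923. *Casp12* and *Gbp5* had no row.

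**Figure D3:**
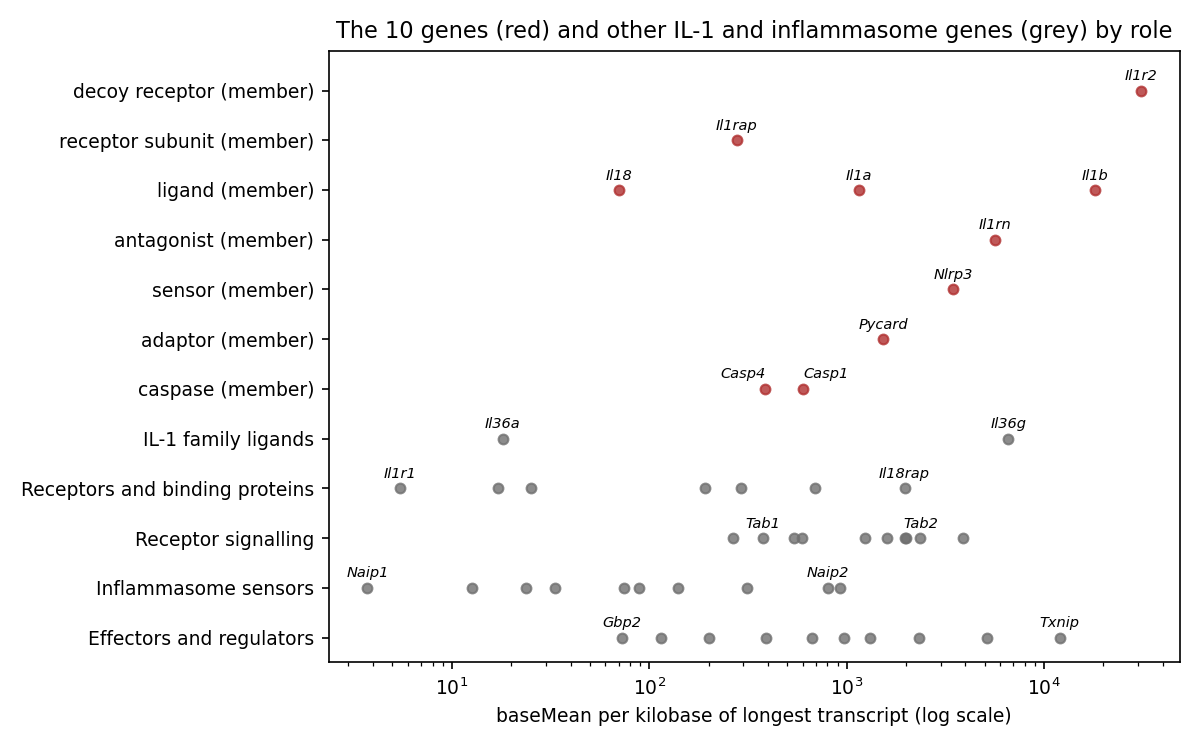
Level as baseMean per kilobase of the longest transcript (log scale) of the 10 members (red) and of the 39 other listed genes of the pathway (grey), 1 row per role. In each grey row the genes with the highest and lowest baseMean are named, and *Il1r2* lies to the right of all other points.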

How the data were processed

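Messenger RNA from 10 libraries of mouse neutrophils in 4 groups was sequenced. Per the labels and the study's methods, the authors used Cutadapt 4.4 for trimming and STAR 2.7.10b for alignment to mm10 and quantification, estimated 4 covariates with RUVSeq, and normalized and modelled the counts with DESeq2 1.26.0. The annotation, the strand setting and the filter on low genes are not given in the sources used here. The deposited signal used is baseMean, the authors' mean normalized count over libraries. The tables also hold the authors' log2 fold changes, standard errors, Wald statistics and p-values for 4 comparisons, which were not used. No test was made, and the depth of each library is unknown. Groups were taken from the sample titles.

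Levels were divided by the longest transcript of GENCODE M21, with 12046 genes matched by symbol (92.0%). A percentile is the share of listed genes with a lower baseMean, and the code was tested on simulated data. Symbols without a row were sought among RefSeq synonyms of GRCm38.p6, which matched *Gsdme*, *Il36a* and *Il36g* to rows under older names. Named genes are all members and, in each role of the pathway list, the genes with the highest and lowest baseMean and those with no row. The members and lists were chosen with earlier results of these data known. Python 3.11.15, numpy 2.4.6, pandas 2.3.3 and matplotlib 3.10.9 were used. Alternatives were other lengths, no length, a baseMean of at least 100, and other totals.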

Additional observations from a re-analysis of the deposited data

How the results depend on the processing

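The highest of the 10 levels was 441 times the lowest per kilobase of the longest transcript. It was 707 times the lowest with no division by length, 331 times per kilobase of the longest coding sequence and 429 times with the APPRIS principal transcript. The last 2 lengths were chosen after seeing the data. The place of a gene in the order changed for 3 members with no division by length (*Casp1*, *Casp4* and *Il1rap*), for 2 per kilobase of coding sequence (*Nlrp3* and *Pycard*) and for 0 with the principal transcript. The median percentile of the members, 77.6 over all genes, was 82.3 among genes with a baseMean of at least 100, which leaves out *Il18*, and 79.6 by baseMean per kilobase. The share of the summed baseMean, 0.194%, was 0.220% without the 10 highest genes and 0.196% without 13 mitochondrially encoded protein genes, a choice made after seeing the data. The planned total without symbols starting with mt- left out 0 genes, and the planned coding length from RefSeq proteins was not run. No paired analysis was possible because the value used is 1 mean over all libraries and no test was made. No replicate could be left out for the same reason.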
